A study of Mus musculus with 3 samples.

Results

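The genes described here are 10 named genes of bone, 7 of the osteoblast matrix (Col1a1, Col1a2, Col3a1, Sparc, Bglap, Ibsp and Spp1) and 3 of the osteoclast (Ctsk, Acp5 and Mmp9), out of 48795 gene identifiers. They were chosen by name, and all 10 were found by matching Ensembl identifiers to GENCODE symbols. The series sequenced polysome-bound RNA from mouse bone marrow cells in 2 wild-type libraries (WT 1 and WT 2) and in 1 library of the genotype that the labels call Mat KO, named Mat KO below. The labels do not say which sequence that genotype lacks, and they give neither strain nor age. Cells of every group were held in cycloheximide, which stalls ribosomes on their mRNA, before lysis and a sucrose gradient. The series title names the imprinted Dlk1-Gtl2 locus, its small nucleolar RNAs and translation, and the genotype comparison asks which RNAs on polysomes differ. The Mat KO arm is 1 library with no replicate, and nothing in the labels says whether the WT libraries came from separate mice, so the spread between them may be technical.

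Osteoblasts build bone by secreting an organic matrix made mostly of type I collagen, a triple helix that holds more alpha-1 chains (Col1a1) than alpha-2 chains (Col1a2), onto which noncollagenous proteins guide mineral. Osteoclasts, large cells of the monocyte lineage, dissolve that mineral with acid and digest the exposed collagen with secreted proteases. Both cell types line the bone surfaces around the marrow.

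Gene-assigned counts were 64547 in WT 1, 239429 in WT 2 and 125871 in Mat KO. Most of them fell on Lars2, on the rRNA feature CT010467.1 and on both mitochondrial rRNAs, and outside these 4 features 20903, 2301 and 14430 counts were left, called other counts from here on. Other counts made up 32.4% of the library in WT 1, 0.961% in WT 2 and 11.5% in Mat KO. Any fold of WT 1 over WT 2 is therefore 33.7 times as large per all gene-assigned counts as per other counts, and any fold over Mat KO 2.82 times as large. Shares are given per 10000 other counts with 95% Wilson intervals, which cover counting error only, since the reads carry no molecular identifiers. On this scale a count of 0 allows, at 3 counts, up to 1.44 in WT 1, 13.04 in WT 2 and 2.08 in Mat KO. This limit, each fold given as a lower bound and each counting interval take counts as independent molecules. Mat KO had 642 genes counted with a median of 9.5 counts, and 141 had 1 count. WT 1 had 4349 genes with a median of 2, and 1946 had 1 count. WT 2 had 425 genes with a median of 1, of which 285 had 1 count and 48 had at least 10. How far reads repeat the same molecules was not tested. Where they do, the limit is too low, the bounds are too high and the intervals are too narrow. The libraries also differed in content. The globin and neutrophil granule lists, which mark marrow cells, were at 0 in every gene in WT 2 and Mat KO and held 401 and 489 counts in WT 1. In Mat KO 12 pancreatic acinar genes held 798 counts, against 1 in WT 1 and 14 in WT 2. WT 1 held 538 counts of 12 liver genes and 288 of 12 skeletal muscle genes, against 26 and 0 in WT 2 and 0 and 0 in Mat KO. The part of these differences in the bone gene values was not tested.

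All 10 genes had counts in WT 1, 3 had counts in WT 2 and none had a count in Mat KO. The background is low in each case, since 8.91% of all identifiers had a count in WT 1, 0.871% in WT 2 and 1.32% in Mat KO. The matrix genes summed to 511 counts in WT 1, 5 in WT 2 and 0 in Mat KO, and the osteoclast genes to 48, 16 and 0. Per 10000 other counts the matrix genes lay at 244 (224 to 266) in WT 1 and at 21.7 (9.29 to 50.8) in WT 2, and the osteoclast genes at 23.0 (17.3 to 30.4) and 69.5 (42.8 to 113). The order of the WT libraries for the osteoclast sum turns per 10000 of all gene-assigned counts, with 7.44 in WT 1 and 0.668 in WT 2. Both WT libraries lay above Mat KO in each sum. In each sum, however, the WT libraries lay farther apart from each other than the lower of them lay from Mat KO. In such bulk polysome RNA, fewer cells of a type, less RNA per cell and a smaller part of that RNA on polysomes cannot be told apart.

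Zero counts in Mat KO were the rule for genes of WT 1 at large. Among 4349 genes counted in WT 1, 93.3% were at 0 in Mat KO, 94.6% in WT 2 and 89% in both, against 10, 7 and 7 of the 10 bone genes. Of the 413 genes with at least 10 counts in WT 1, 82.1% were at 0 in Mat KO, 83.3% in WT 2 and 71.4% in both. Of the bone genes, 7 had at least 10 counts, and 7, 5 and 5 of these were at 0 in the same way. Of the 425 genes counted in WT 2, 80.9% were at 0 in Mat KO, as were the 3 bone genes counted there. These shares lie near the background.

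**Figure D1:**
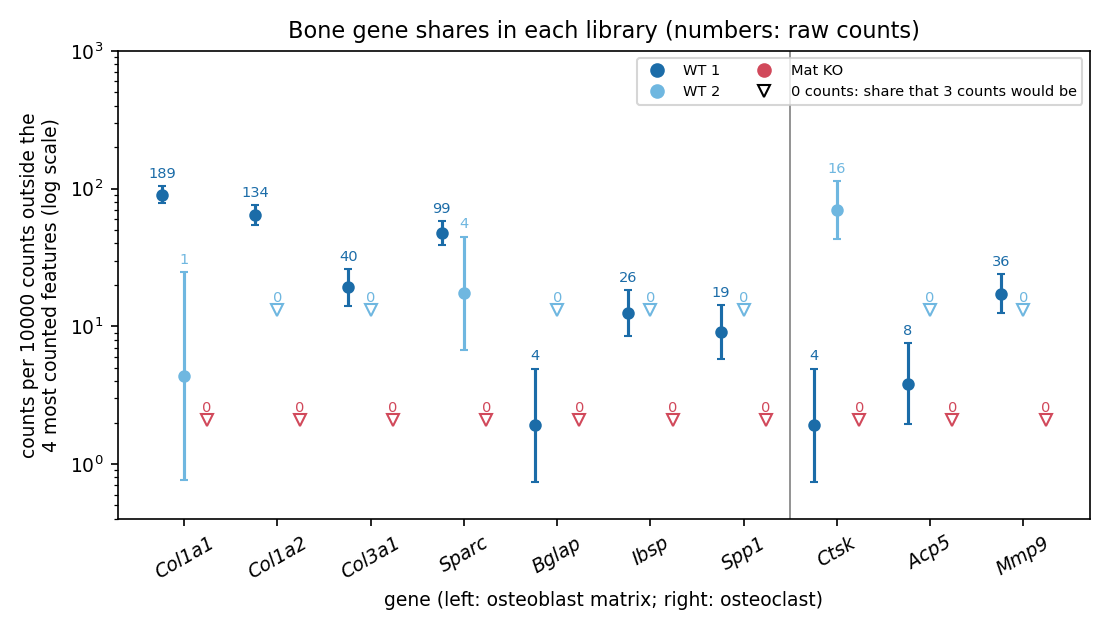
Share of each gene in each library, per 10000 other counts on a log axis, with Wilson intervals as bars and raw counts as numbers. Open triangles mark a count of 0 and sit at the share of 3 counts. WT 1 holds every gene, WT 2 holds Col1a1, Sparc and Ctsk, and Mat KO holds none.

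By count in WT 1, Col1a1 and Col1a2 came first among the matrix genes, and Col3a1 followed behind Sparc. Col1a1 (ENSMUSG00000001506, GRCm38 chromosome 11 from 94936224 to 94953042), the alpha-1 chain of type I collagen, gave 189 counts in WT 1, 1 in WT 2 and 0 in Mat KO. Apart from Lars2, no nuclear gene for a protein had more counts in WT 1, where 4206 such genes were counted. Col1a2 (ENSMUSG00000029661, chromosome 6 from 4504814 to 4541544), the alpha-2 chain, had 134, 0 and 0 counts. Col3a1 (ENSMUSG00000026043, chromosome 1 from 45311538 to 45349706), the chain of type III collagen, which is found in marrow stroma, vessels and other soft tissue more than in mineralised bone, had 40, 0 and 0 counts. All these collagens had their counts in WT 1 but for the single one in WT 2, where a 0 allows a higher share than in Mat KO.

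Type I collagen was counted 323 times in WT 1 and 1 time in WT 2, a share 35.6-fold higher in WT 1 with a counting interval of 6.34 to 1409. Against Mat KO it was at least 74.3-fold higher, taking WT 1 at its observed share, 3 counts as the limit of 0 and counts as independent. Relative to coding counts, meaning those of all nuclear genes for proteins except Lars2 (18576 in WT 1, 1220 in WT 2 and 8021 in Mat KO), the same values were 21.2-fold (3.78 to 840) and at least 46.5-fold. For Col3a1 the bounds were at least 1.47-fold over WT 2 and at least 9.20-fold over Mat KO. The bound over WT 2 is lost on the coding scale, where 3 counts in WT 2 would be a larger share than the one seen in WT 1.

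Sparc, Bglap, Ibsp and Spp1 encode the noncollagenous matrix proteins. Sparc (ENSMUSG00000018593, chromosome 11 from 55394500 to 55423183), or osteonectin, a collagen- and calcium-binding glycoprotein that platelets also carry, gave 99 counts in WT 1, 4 in WT 2 and 0 in Mat KO. It was the matrix gene that WT 2 held best, at 17.4 (6.76 to 44.6) per 10000 other counts against 47.4 (38.9 to 57.6) in WT 1. The share in WT 1 was 2.72-fold higher (1.03 to 10.2), but 1.63-fold (0.615 to 6.08) per coding counts, an interval that includes 1, and 91.8-fold (34.7 to 344) per all gene-assigned counts. Against Mat KO it was at least 22.8-fold higher. The megakaryocyte and platelet list, led by Ppbp with 17, 0 and 0 counts and Pf4 with 7, 0 and 0, summed to 27 in WT 1 over 4 counted genes of 10, and to 0 in both other libraries. The part of these cells in the Sparc value was not tested.

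Ibsp (ENSMUSG00000029306, chromosome 5 from 104299171 to 104311469), or bone sialoprotein, which nucleates hydroxyapatite, gave 26 counts in WT 1, 0 in WT 2 and 0 in Mat KO. Spp1 (ENSMUSG00000029304, chromosome 5 from 104435118 to 104441050), or osteopontin, a phosphoprotein that inhibits crystal growth and anchors osteoclasts, had 19, 0 and 0 counts. Bglap (ENSMUSG00000074483, chromosome 3 from 88383501 to 88384464), or osteocalcin, the vitamin K-dependent protein of mature osteoblasts, had 4, 0 and 0 counts. The shares of Ibsp and Spp1 in WT 1 were at least 5.98-fold and 4.37-fold above Mat KO, whereas for Bglap 3 counts in Mat KO would exceed the share of WT 1. Ibsp and Spp1 belong to a gene cluster of mineral-binding phosphoproteins on chromosome 5 that spans 270 kb with Dspp, Dmp1 and Mepe. In that cluster Dmp1, a gene of osteocytes, had 1 count in WT 1, and Dspp and Mepe, of tooth dentin and of osteocytes, had 0 in every library. Spp1 shares 18.8% of its exon bases with Gm42793 on the same strand, and reads falling on both genes were recorded apart from the gene counts.

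In mouse Bglap belongs to a family of 3 closely similar genes within 15.8 kb of chromosome 3. Their coding sequences show why the counts of Bglap cannot be read alone. Each is 288 bases long and is given from GENCODE M21 (GRCm38, minus strand), with capitals in Bglap2 and Bglap3 where a base differs from Bglap.
Bglap: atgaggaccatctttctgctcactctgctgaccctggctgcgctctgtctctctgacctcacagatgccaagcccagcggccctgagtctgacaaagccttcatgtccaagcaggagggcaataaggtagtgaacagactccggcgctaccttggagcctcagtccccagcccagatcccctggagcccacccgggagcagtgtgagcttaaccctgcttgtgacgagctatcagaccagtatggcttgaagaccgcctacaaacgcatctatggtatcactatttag
Bglap2: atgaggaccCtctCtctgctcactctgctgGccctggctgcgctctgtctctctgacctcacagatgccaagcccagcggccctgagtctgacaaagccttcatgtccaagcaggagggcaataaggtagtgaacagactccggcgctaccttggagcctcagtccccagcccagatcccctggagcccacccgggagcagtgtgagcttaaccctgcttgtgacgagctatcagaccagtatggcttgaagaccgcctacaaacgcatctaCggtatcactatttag
Bglap3: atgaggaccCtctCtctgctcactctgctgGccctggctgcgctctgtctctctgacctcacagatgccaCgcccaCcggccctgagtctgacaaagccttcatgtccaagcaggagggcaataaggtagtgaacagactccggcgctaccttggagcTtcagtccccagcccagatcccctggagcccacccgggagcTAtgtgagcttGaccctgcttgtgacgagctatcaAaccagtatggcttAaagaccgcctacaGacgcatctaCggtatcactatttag
Bglap2 differed from Bglap at 4 bases (98.6% identity) and Bglap3 at 13 (95.5%). Of all 50-base windows in annotated transcripts, 56.6% of those of Bglap and 88.2% of those of Bglap2 also occur in another gene of this family, so a short read from them has more than 1 place to align. Reads aligned to several places were recorded apart from the gene counts. Bglap2 had 4 counts in WT 1 and 0 in WT 2 and Mat KO, the same as Bglap, and Bglap3 had 0 in all libraries. The division of counts between Bglap and Bglap2 is uncertain, and how many of their reads were set apart is not known. Among the other 9 genes, at most 11.6% of windows were shared, for Spp1.

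The stretch before the start site of a gene is where osteoblast regulators such as RUNX2 bind, and it is shown for the matrix genes Bglap and Ibsp as examples. Both were counted in WT 1 alone, as were Col1a2, Col3a1, Spp1 and Acp5, whose promoters are not shown. The 250 bases before the RefSeq start (GRCm38.p6) are chr3:88384467-88384716, minus strand, for Bglap and chr5:104299037-104299286, plus strand, for Ibsp. Capitals mark the letters CCAAT of a common promoter box, the letters ACCACA of the core that RUNX factors prefer, or the letters TATAAA of a TATA box, on either strand.
Bglap: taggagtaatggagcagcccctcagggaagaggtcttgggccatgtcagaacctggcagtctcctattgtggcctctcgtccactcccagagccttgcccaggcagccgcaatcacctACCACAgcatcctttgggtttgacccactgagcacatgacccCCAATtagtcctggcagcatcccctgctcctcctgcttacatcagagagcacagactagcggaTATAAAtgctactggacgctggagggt
Ibsp: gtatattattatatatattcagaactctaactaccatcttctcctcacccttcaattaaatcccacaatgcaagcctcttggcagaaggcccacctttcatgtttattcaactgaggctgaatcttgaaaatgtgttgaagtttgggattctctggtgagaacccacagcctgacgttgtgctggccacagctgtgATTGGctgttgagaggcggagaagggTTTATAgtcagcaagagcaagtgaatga
Bglap holds ACCACA 132 bases, CCAAT 90 bases and TATAAA 27 bases before the start. Ibsp holds CCAAT 54 bases and TATAAA 28 bases before the RefSeq start, both on the other strand. GENCODE starts Ibsp earlier, at 104299171, so both matches lie inside the gene span given above. Of 32851 promoter windows of this length, 33.8% hold CCAAT, 14% ACCACA and 12.4% TATAAA on either strand. The RefSeq table had a promoter for 8 of the 10 genes, and Col1a1 and Mmp9 had no entry. These matches are a description of letters and were not tied to any count.

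Levels can be compared between genes only per length, and only WT 1 has counts enough for it. Per 10000 other counts and per kb of the longest protein-coding transcript, Sparc stood highest at 20.6 (16.9 to 25.1). Col1a1 followed at 15.2 (13.2 to 17.6) and Col1a2 at 12.0 (10.1 to 14.2), with intervals that overlap between neighbours. Below a gap in the estimates lay Spp1 at 6.03 (3.86 to 9.42), Ibsp at 6.01 (4.11 to 8.81), Mmp9 at 5.42 (3.92 to 7.51) and Bglap at 4.35 (1.69 to 11.2), which do not differ beyond counting error. The interval of Bglap also overlaps that of Col1a2. Col3a1 at 3.44 (2.53 to 4.68), Acp5 at 2.64 (1.34 to 5.22) and Ctsk at 1.27 (0.492 to 3.25) came last by estimate. The intervals of Col3a1 and Acp5 overlap those of Spp1, Ibsp and Mmp9. Ranked this way among nuclear protein-coding genes, Sparc was number 22, Col1a1 35 and Col1a2 50 in WT 1. Per kb of all annotated exons, Col1a1 stood first at 13.8 (12.0 to 15.9) and Sparc next at 12.5, while Col1a2 at 5.16 (4.36 to 6.11) lay among Ibsp at 6.01 (4.11 to 8.81) and Spp1 at 5.52 (3.53 to 8.61). Both the leading gene and the gap thus depend on the length used. These intervals cover counting error within 1 library and hold no spread between libraries.

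The ratio of the alpha-1 to the alpha-2 chain mRNA of type I collagen depended on the length used. Per length of the longest protein-coding transcript (5930 and 5348 bases), Col1a1 was 1.27-fold above Col1a2, with a counting interval of 1.01 to 1.60. Per length of all annotated exons (6563 and 12426 bases), a choice added after the data were seen, it was 2.67-fold above (2.13 to 3.36). Col1a1 was the higher on both lengths, and the size of the excess cannot be fixed without knowing which transcripts the reads came from. Relative to Col3a1, Col1a1 stood 4.43-fold higher per transcript length (3.14 to 6.40) and 7.07-fold per exon length (5.00 to 10.2).

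**Figure D2:**
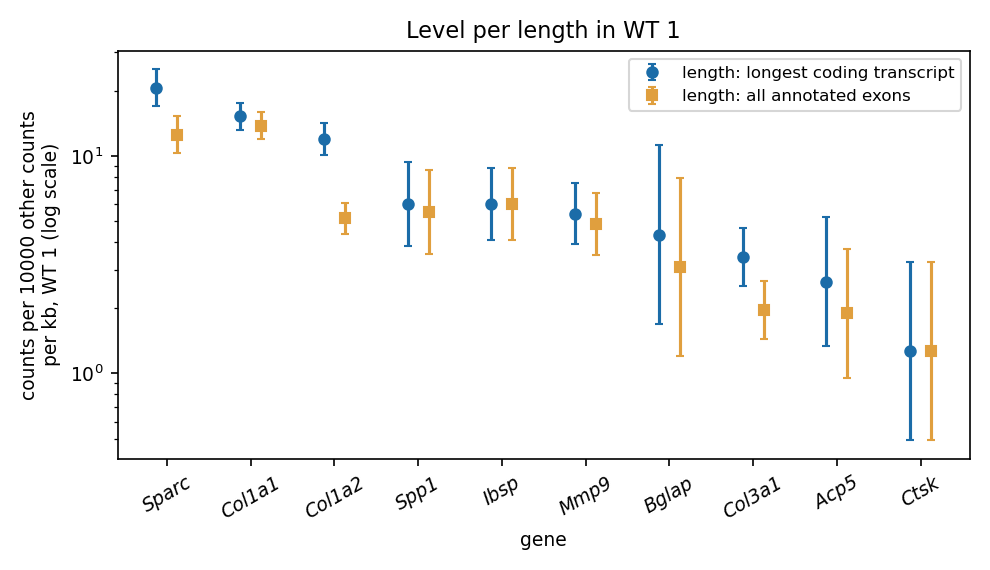
Level of each gene in WT 1, in counts per 10000 other counts per kb on a log axis, with Wilson intervals, for the longest protein-coding transcript (circles) and for all annotated exons (squares). Sparc, Col1a1 and Col1a2 lead by transcript length, and Col1a2 drops from 12.0 to 5.16 when all exons are used.

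Among the osteoclast genes only Ctsk departed from the matrix genes, with most of its counts in WT 2, while Mmp9 and Acp5 were counted in WT 1 alone. Ctsk (ENSMUSG00000028111, chromosome 3 from 95499256 to 95509362), or cathepsin K, the protease that cuts type I collagen in the acid space beneath the osteoclast, gave 4 counts in WT 1, 16 in WT 2 and 0 in Mat KO. Its share was 36.3-fold higher in WT 2 than in WT 1 (11.7 to 149), or 60.9-fold (19.6 to 250.3) per coding counts. Both intervals take the 16 counts of WT 2 as independent molecules, which was not tested. Per all gene-assigned counts the difference was gone, at 1.08-fold (0.348 to 4.43), so the order of the WT libraries for Ctsk rests on leaving out the most counted features. Of the 48 genes with at least 10 counts in WT 2, 70.8% had more counts there than in WT 1, and Ctsk is 1 of them. The Ctsk count in Mat KO would be 2.76 at the share of WT 1, under the limit of 3, and 100.3 at the share of WT 2. Per all gene-assigned counts these would be 7.80 and 8.41, both above the limit.

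Mmp9 (ENSMUSG00000017737, chromosome 2 from 164940780 to 164955850), or gelatinase B, a matrix metalloproteinase of osteoclasts that neutrophils also store in granules, gave 36 counts in WT 1, 0 in WT 2 and 0 in Mat KO. Acp5 (ENSMUSG00000001348, chromosome 9 from 22126727 to 22135711), the tartrate-resistant acid phosphatase by which osteoclasts are stained, had 8, 0 and 0 counts. Both were counted in WT 1 alone, unlike Ctsk. The share of Mmp9 in WT 1 was at least 8.28-fold above Mat KO and at least 1.32-fold above WT 2, and that of Acp5 at least 1.84-fold above Mat KO. The bound for Mmp9 over WT 2 is lost per coding counts. The neutrophil granule list had 489, 0 and 0 counts over 11 counted genes of 12, with S100a8 at 137, 0 and 0 and S100a9 at 133, 0 and 0. Counts in WT 1 alone were the rule, as 89% of all genes counted in WT 1 were at 0 in both other libraries. The part of the neutrophil granule genes in the Mmp9 value was not tested. The macrophage list had 75, 0 and 0 counts, led by Lyz2 with 58, 0 and 0, and its part in the osteoclast gene values was not tested.

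How much a count of 0 says depends on whether counts are independent and on the count that the share of WT 1 would give in the other libraries. In Mat KO that count was 130 for Col1a1, 92.5 for Col1a2, 68.3 for Sparc, 27.6 for Col3a1, 24.9 for Mmp9, 17.9 for Ibsp, 13.1 for Spp1 and 5.52 for Acp5, all above the limit of 3. For Bglap and Ctsk it was 2.76, so their absence from Mat KO cannot be shown against WT 1 on this scale. Per all gene-assigned counts it was 7.80 for both, above the limit, so the call turns with the denominator. In WT 2 it was 20.8 for Col1a1, where 1 was observed, 14.8 for Col1a2, where 0 was observed, and 10.9 for Sparc, where 4 were observed. Col3a1 at 4.40 and Mmp9 at 3.96 were just above the limit, and Ibsp at 2.86, Spp1 at 2.09, Acp5 at 0.881 and Bglap at 0.440 were below it. On this scale the 0 counts of Ibsp, Spp1, Acp5 and Bglap in WT 2 are not detectable differences from WT 1. Per all gene-assigned counts the same genes would have 96.4, 70.5, 29.7 and 14.8 counts in WT 2, all above the limit, so this call turns with the denominator too.

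**Figure D3:**
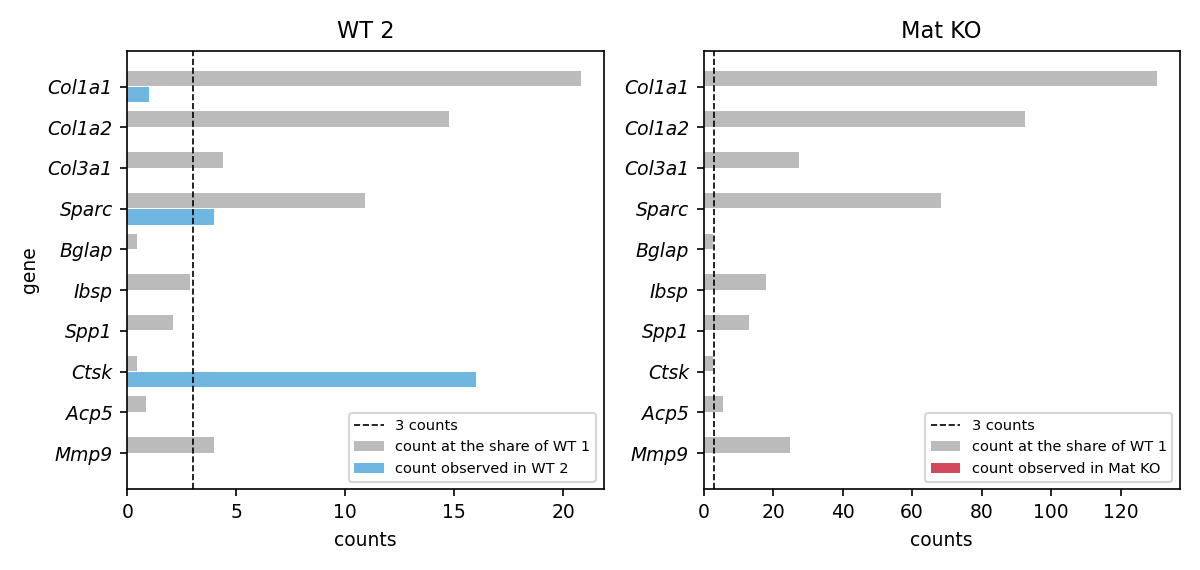
Count of each gene at the share of WT 1 (grey) and count observed (coloured) in WT 2 on the left and in Mat KO on the right, with a dashed line at 3 counts. Grey bars pass the line for 8 genes in Mat KO and for 5 in WT 2, and Ctsk in WT 2 is the 1 gene observed above its grey bar.

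In the test of Mat KO against WT across genes, no bone gene passed the threshold. edgeR's quasi-likelihood test took 437 genes, of which 7 were bone genes, and called 0 at a false discovery rate of 0.05, a background of 0%. No gene had an unadjusted p under 0.05, while DESeq2 called 0 with 0 at an unadjusted p under 0.05 and limma-voom called 0 with 20. The log2 fold change of Col1a1, Mat KO minus WT, was -6.15 with a standard error of 4.72, and that of Col1a2 was -5.65 with 4.64. Sparc had -5.32 with a standard error of 4.62, Col3a1 -3.98 with 4.60, Mmp9 -3.84 with 4.58, Ibsp -3.41 with 4.42 and Spp1 -3.01 with 4.15. All these had an edgeR adjusted p of 0.729. Bglap, Ctsk and Acp5 did not pass the filter on low counts. The 7 tested genes passed it through WT 1, so values below 0 were fixed beforehand, and among all tested genes 53.1% lay below 0. With WT 1 left out, Col1a2, Col3a1, Ibsp, Spp1 and Mmp9 came to 0, since no count was left in either library, and Col1a1 and Sparc rested on 1 and 4 counts of WT 2.

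Of 30 other genes of osteoblasts and osteocytes, 10 had a count in WT 1, 43 in sum, 0 had one in WT 2 or Mat KO, and 20 had none anywhere. The 10 of 10 genes counted in WT 1 alone lie near the background, since 89% of all genes counted in WT 1 were at 0 in both other libraries. Atf4, a transcription factor of the amino acid stress response that osteoblasts also need, had 12, 0 and 0 counts. Smpd3, a sphingomyelinase needed for mineralisation, had 7, 0 and 0, Serpinf1, a secreted serpin lost in a brittle bone disease, 7, 0 and 0, and Sp7 (osterix), the defining transcription factor of osteoblasts, 5, 0 and 0. Alpl, the bone alkaline phosphatase, had 1 count in WT 1, and Runx2 had 0 in all libraries. Of the list, 0 genes entered the edgeR test.

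Of 34 genes of collagen biosynthesis and secretion, 15 had a count in WT 1, 1 in WT 2 and 0 in Mat KO, with 105, 1 and 0 counts in sum. Of the 15, 14 were counted in WT 1 alone, near the background of 89%. P4hb, the shared subunit of prolyl 4-hydroxylase, had 32, 0 and 0 counts. Serpinh1 (HSP47), the collagen chaperone of the endoplasmic reticulum, had 22, 1 and 0. Bmp1, the procollagen C-proteinase, had 14, 0 and 0, Lox, which crosslinks the fibrils, 12, 0 and 0, and P4ha2, a catalytic subunit of prolyl hydroxylase, 6, 0 and 0. Of these 34 genes 2 were tested and 0 called.

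Among all 44 collagen genes, 21 had a count in WT 1, 2 in WT 2 and 0 in Mat KO, with 447, 2 and 0 counts in sum, and 19 of the 21 were counted in WT 1 alone, also near 89%. After Col1a1, Col1a2 and Col3a1 came Col5a2, a chain of the fibril-nucleating type V collagen that lies 24.6 kb from Col3a1, with 19, 0 and 0 counts, and Col11a2, a chain of cartilage fibrils, with 17, 0 and 0. Of 15 chondrocyte markers 7 were counted, all in WT 1 alone and 42 in sum, with Col2a1, the main cartilage collagen, at 10, 0 and 0. Acan, Sox9 and Col10a1, which define cartilage, were at 0 in all libraries. The stromal and endothelial markers summed to 33, 0 and 10 counts, with Cxcl12, a chemokine of marrow stroma, at 15, 0 and 0, and Cdh5, of endothelium, at 0, 0 and 10.

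Matrix glycoproteins and proteoglycans had counts in all 3 libraries. Of the 26 genes listed, 21 had a count in WT 1, 4 in WT 2 and 4 in Mat KO, with 208, 24 and 15 counts. Per 10000 other counts this was 99.5 (86.9 to 114), 104 (70.2 to 155) and 10.4 (6.30 to 17.1), and per 10000 of all gene-assigned counts 32.2, 1.00 and 1.19. The sums include Vim, which encodes an intracellular filament protein and not a matrix protein, with 4, 8 and 0 counts. Different genes carried these sums. Fn1 (fibronectin), which liver and many other cells also make, had 84, 2 and 0 counts, and Dcn, the collagen-binding proteoglycan decorin, 29, 0 and 1. Vtn, the liver-made vitronectin, had 17, 0 and 0, and Nid1, of basement membranes, 3, 13 and 0. Eln, which encodes elastin, had 0, 0 and 12, and so stood in Mat KO alone. Of 3 tested genes 0 were called.

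Other osteoclast genes gave few counts and no common order. Of 26 matched genes, 9 had a count in WT 1, 0 in WT 2 and 2 in Mat KO, with 22, 0 and 22 counts in sum. Itgb3, the integrin that seals the osteoclast to bone, had 6, 0 and 0 counts, and Car2, the carbonic anhydrase that supplies its acid, 5, 0 and 0. The counts of Mat KO came from Ostm1, a subunit of the lysosomal chloride transporter, with 1, 0 and 14, and from Traf6, an adaptor below the RANK receptor, with 0, 0 and 8. Csf1r, Tnfrsf11a (RANK) and Nfatc1, which drive osteoclast formation, had 1 count each in WT 1 and 0 elsewhere. Thus WT 2 held 16 counts of Ctsk and none of the other osteoclast genes listed.

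Proteases of the same families as Ctsk and Mmp9 were read too. Of 18 cathepsin genes, 9 had a count in WT 1, 8 of them in WT 1 alone, against the background of 89%, with Ctsd, a lysosomal aspartic protease, at 17, 0 and 0, Ctsz at 13, 0 and 0, Ctsb at 11, 0 and 0 and Ctsa at 7, 0 and 0. Ctsk was the 1 cathepsin gene with a count in WT 2, and through it the family stood at 69.5 (42.8 to 113) per 10000 other counts there against 28.7 (22.3 to 36.9) in WT 1. Per 10000 of all gene-assigned counts these were 0.668 and 9.30. Ctss, the cathepsin gene 17.4 kb from Ctsk, had 0 counts in every library. Of 23 matrix metalloproteinase genes, 4 were counted, all in WT 1 alone, with Mmp2 (gelatinase A) at 6, 0 and 0 after Mmp9 and Mmp13, the collagenase of bone, at 1, 0 and 0.

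**Figure D4:**
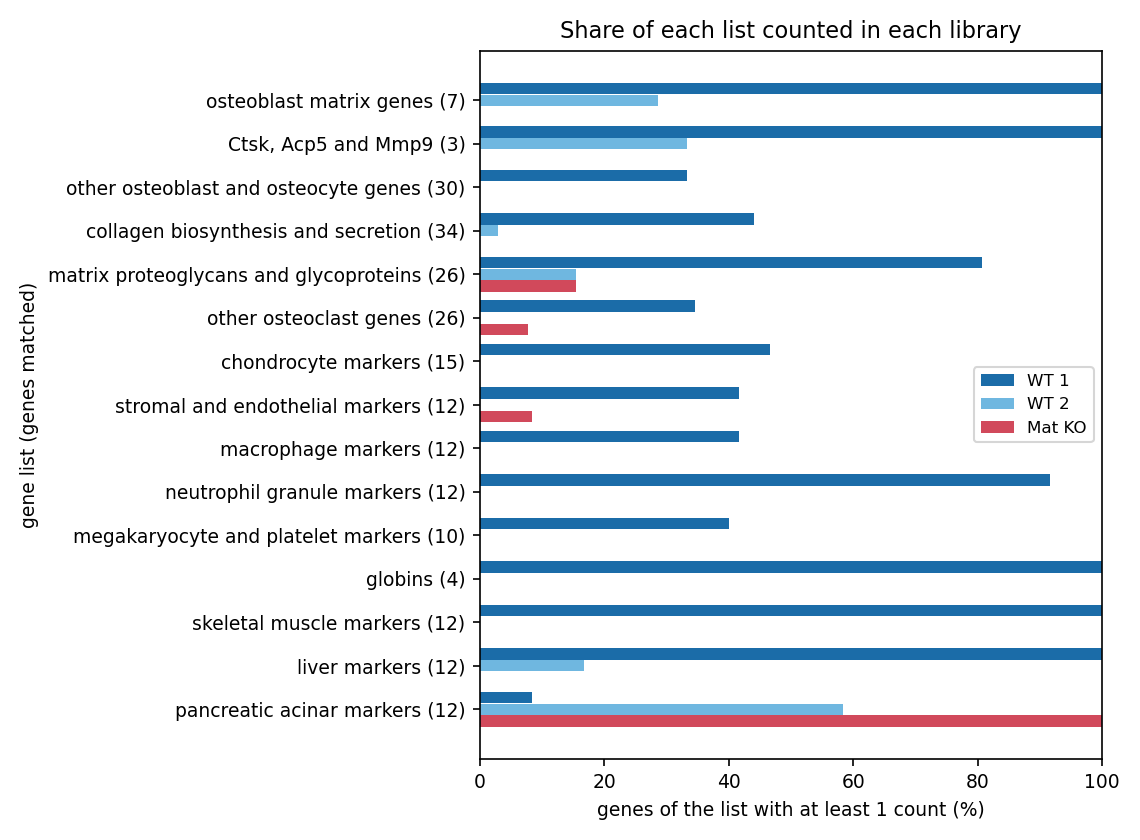
Percent of the genes of each list with at least 1 count in WT 1, WT 2 and Mat KO, with the number of matched genes in parentheses. WT 1 holds all 10 bone genes, Mat KO none of them, and the pancreatic acinar list runs the other way, with all 12 genes counted in Mat KO and 1 in WT 1.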

How the data were processed

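Each library came as 1 table of counts per Ensembl gene, which the authors deposited without normalization. The reads went through Trimmomatic, HISAT2 2.1.0 and then HTSeq 0.11.2 on GRCm38, tools and build that the submitters' processing notes list. Neither the labels nor these notes state the annotation release, strand setting or kit. Library sizes leave out the 5 summary lines that HTSeq adds. Gene-assigned reads were 15.1%, 11.8% and 9.99% of all recorded in WT 1, WT 2 and Mat KO, and reads on overlapping genes 33.5%, 74.3% and 66.1%. GENCODE M21 (GRCm38) named 48349 of 48795 identifiers and 226 of 228 listed symbols.

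Genes were tested with edgeR 4.0.16 (quasi-likelihood, TMM, filterByExpr with a minimum count of 10 and a total of 15, prior count 2, Benjamini-Hochberg adjustment) in R 4.3.3, with 1 residual degree of freedom, so Mat KO is taken to vary as WT does. The standard error is the absolute log2 fold change over the square root of F. DESeq2 1.42.0 and limma 3.58.1 were alternatives, beside other scalings, no filter and left-out libraries. Wilson intervals of shares and exact intervals of ratios, conditional on the summed counts, came from SciPy 1.17.1, at 95%. Coding sequences of the Bglap family were aligned with Biopython 1.88. All 10 genes were named with every count. Of each other list up to 5 genes with at least 5 counts in 1 library were named by their highest count, and up to 2 of marker lists. Other genes named with lower counts were chosen after their values were seen. The genes and lists were chosen with earlier results of these data known.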

Additional observations from a re-analysis of the deposited data

How the results depend on the processing

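No gene was called under any scaling, filter or tool run. The 7 tested bone genes are at 0 in Mat KO, so the sign of their log2 fold change could not turn and says nothing about stability. Their adjusted p in edgeR, DESeq2 and limma-voom ran from 0.366 to 0.847. The summed shares moved with the denominator. Per 10000 nuclear protein-coding counts other than Lars2, the matrix genes came to 275 in WT 1 and the osteoclast genes to 131 in WT 2. Per 10000 of all gene-assigned counts, the matrix genes came to 79.2 in WT 1 and 0.209 in WT 2, and the osteoclast genes to 7.44 and 0.668, which turns the order of the WT libraries for the osteoclast sum. Without Col1a1 the matrix genes of WT 1 came to 154, and without Mmp9 the osteoclast genes to 5.74. The mean of the WT libraries was 133 ± 157 (SD, n = 2) for the matrix genes and 46.2 ± 32.9 (SD, n = 2) for the osteoclast genes, and leaving out 1 library gave 21.7 to 244 and 23.0 to 69.5. No paired analysis was possible because the Mat KO title carries no replicate number. Depth limits WT 2 most, where 2301 other counts leave a gene of 3 counts at 13.04 per 10000.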
